A study of Mus musculus with 12 samples.

Results

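Brown adipose tissue (BAT) was compared with white adipose tissue (WAT) in ob/ob/Cidea-/-/Cidec-/- mice, called triple mutants here. The comparison rests on 6 of the 12 arrays of the series, chosen by their titles: 3 BAT arrays and 3 WAT arrays of triple mutants. The other 6 arrays are 3 BAT and 3 WAT arrays of ob/ob mice and serve to show which depot differences remain. All mice carried the ob/ob genotype, which removes leptin, so no group is wild type at that locus. The labels give male C57 mice aged 4 months on chow for every group, name the 3 genotype parts as written above without saying how the Cidea and Cidec alleles were made, and do not name the white depot. Total RNA was hybridised to Affymetrix mouse gene arrays, and a value is the deposited log2 level of a gene, on which a difference of 1 is a doubling. The labels do not state whether each array is a different mouse. The p-values rest on a spread pooled over the 4 groups of 3 arrays, and some or all of this spread may be technical.

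Brown fat burns fatty acids and glucose for heat. Its mitochondria hold UCP1, which lets protons leak across the inner membrane, and its cells carry many small lipid droplets. White fat stores triglyceride in large droplets and secretes hormones such as leptin and adiponectin. CIDEA and CIDEC sit on the contacts between lipid droplets and promote their fusion, CIDEC in white and brown fat and CIDEA mainly in brown fat. Fat depots also differ by origin: they keep different sets of developmental transcription factors, and the depots of the belly are covered by mesothelium.

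The 6 arrays were not alike within their groups. The highest of 45 control probe sets that match no mouse sequence lay between 7.85 and 8.07 on the triple mutant BAT arrays and between 7.65 and 8.05 on the triple mutant WAT arrays. Of the 21618 genes, 21.7 to 25.2% lay above it on the BAT arrays and 21.6 to 27.9% on the WAT arrays. A gene below it on all 3 arrays of a group is called below the controls in that group, and a fold against such a group is given as a lower bound. Skeletal muscle markers averaged 10.004, 7.55 and 6.065 on triple mutant BAT arrays 1, 2 and 3, against 5.415, 5.43 and 5.48 on the WAT arrays. White fat array 3 of the triple mutants carried more brown fat signal than arrays 1 and 2, with Ucp1 at 10.36 against 6.94 and 7.89, and fewer mesothelial transcripts. Limma's estimated array weight was 0.36 for this array, the lowest of the 12. As for the tissue labels, all 20 adipocyte markers lay above the controls on all 6 arrays, and Ucp1, the marker that defines brown fat, was higher on each BAT array than on any WAT array. Several counts are therefore given without BAT array 1 or WAT array 3 as well. Most differences of single genes, those of Ucp1, Cidea and Fabp3 among them, are given with all arrays only. In these 3 genes WAT array 3 was the highest of its group.

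Between the depots of triple mutants 3107 genes differed (14.4% of the genes tested; limma with Benjamini-Hochberg adjustment, adjusted p under 0.05, the rule behind every call below). Of these, 1393 (6.44%) were higher in BAT and 1714 (7.93%) were lower. A difference of at least 1 on the log2 scale was reached by 724 of them (3.35%). The count was 2187 without BAT array 1 and 3585 without WAT array 3, and it fell to 1835 without WAT array 1 and 1840 without WAT array 2. The same test called 8053 genes (37.3%) between the depots of ob/ob mice, 3933 (18.2%) higher in BAT and 4120 (19.1%) lower, with 8.5% of all genes called and at least 1 apart. The 3 BAT and 3 WAT arrays did not overlap in 32.7% of genes in triple mutants and in 52.2% in ob/ob.

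A depot difference was counted as remaining where both genotypes were called in the same direction. This held for 1691 genes (7.82%), which are 54.4% of the calls in triple mutants and 21% of those in ob/ob. The 882 genes (4.08%) higher in BAT of both genotypes had a median log2 difference of 0.62 in triple mutants and 0.81 in ob/ob. The 809 genes (3.74%) lower in BAT of both had medians of -0.75 and -0.84. The remaining count was 1103 without triple mutant WAT array 1, 1100 without WAT array 2 and 1947 without WAT array 3. Of the genes called higher in BAT of ob/ob, 79.7% had a positive difference in triple mutants, called or not, and of those called lower, 72% had a negative one.

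A difference that was called in ob/ob and missed the threshold in triple mutants is not thereby shown to be lost, so the difference of the depot differences was tested as well. This test called 3002 genes (13.9%), 1819 (8.41%) with a higher and 1183 (5.47%) with a lower BAT minus WAT value in triple mutants, and the change was at least 1 for 4.58% of all genes. The total was 1779, 1837 and 1851 without ob/ob WAT array 1, BAT array 3 or WAT array 2. Of the 6255 genes called in ob/ob but not in triple mutants, 2100 (33.6%) had a called change, 589 of them higher and 1511 lower in BAT of ob/ob. Of the 1691 remaining genes, 149 of the 882 higher in BAT and 103 of the 809 lower in BAT had a called change of size. In 132 and 72 of these the difference was nearer 0 in triple mutants. Another 1309 genes were called in triple mutants only, and the change was called for 440 of them (33.6%). Calls in opposite directions were made for 107 genes (0.495%).

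**Figure D1:**
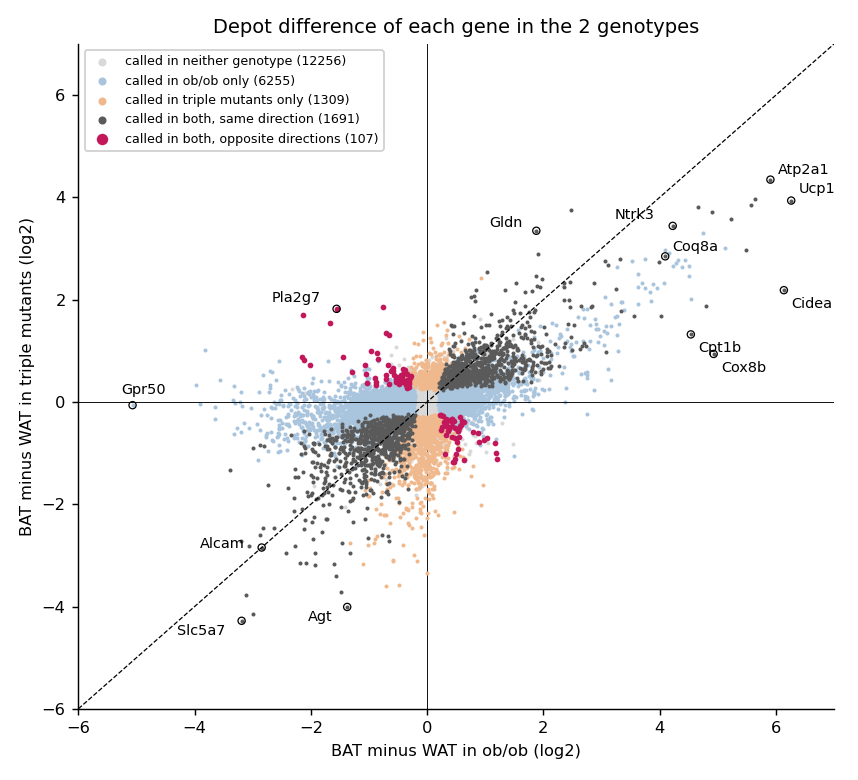
Depot difference (BAT minus WAT, log2) of each of the 21618 genes in triple mutants (vertical axis) against ob/ob (horizontal axis), with the dashed line marking equal differences and colours marking the calls in each genotype. The 1691 remaining genes lie at the lower left and upper right, and Cidea, Cpt1b and Cox8b lie far below the line.

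The probe sets of the deleted genes still gave signal. Cidea read 11.29, 11.39 and 11.29 in BAT of triple mutants, against 8.42, 8.95 and 10.03 in their WAT. Cidec read 10.81, 10.83 and 10.79 in BAT and 11.25, 11.07 and 11.04 in WAT. The BAT minus WAT difference was 2.19 for Cidea (adjusted p = 0.00108) and -0.31 for Cidec (adjusted p = 0.251). In ob/ob mice the differences were 6.14 and -0.65, and the Cidea difference was 3.95 log2 units smaller in triple mutants (difference -3.95, adjusted p = 9.01e-04). How the probes lie to the removed exons is not stated by the labels or files, and these levels therefore serve as no check of genotype or of protein loss. Cideb, a related droplet protein of liver and gut, read 8.14, 8.33 and 7.55 in BAT and 7.91, 7.65 and 7.72 in WAT, and it was not called (adjusted p = 0.64).

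Several genes of the brown fat programme were higher in BAT of triple mutants. Ucp1, the uncoupling protein (chromosome 8, 85814251 to 85822351 on the plus strand of NCBIM37, the build of the deposited annotation), read 12.43, 12.62 and 11.96 in BAT and 6.94, 7.89 and 10.36 in WAT. The groups did not overlap, and 2 of the 3 WAT arrays stood above the controls. The log2 difference was 3.94 ± 0.67 (SE of the limma fit, 3 arrays a depot, adjusted p = 0.00262), a fold of 15.3. This SE rests on a spread pooled over all 4 groups, not on the triple mutant arrays alone, whose WAT values ran from 6.94 to 10.36. In ob/ob it was 6.26, with 5.18, 4.91 and 6.21 in WAT. The change between genotypes was -2.33 with a 95% interval from -4.39 to -0.26, and it missed the threshold after adjustment (adjusted p = 0.122). The triple mutant difference and this change both include WAT array 3, the highest of its group.

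Among the 12 genes with the largest BAT excess in triple mutants, 6 encode sarcomere or calcium-handling proteins of skeletal muscle and are described with the muscle markers below. The others were Ucp1, Ntrk3, Gldn, Fabp3, Kng2 and Coq8a. Ntrk3, a neurotrophin receptor, read 8.55, 8.81 and 9.41 in BAT and 5.67, 5.67 and 5.10 in WAT, where it was below the controls, so it was at least 2.18-fold higher in BAT (log2 difference 3.44, adjusted p = 6.43e-06). Coq8a, a mitochondrial kinase-like protein needed for coenzyme Q synthesis, read 11.002, 10.68 and 11.38 in BAT and 8.32, 8.05 and 8.15 in WAT, a 7.20-fold difference (adjusted p = 5.23e-06). The WAT arrays of ob/ob were lower for both genes, at 4.52 to 4.59 and 6.65 to 6.91, and the change in the depot difference was called for Coq8a (-1.25, adjusted p = 0.00692) but not for Ntrk3 (-0.78, adjusted p = 0.0957). Fabp3, a fatty acid binding protein, read 11.57, 11.77 and 11.38 in BAT and 7.38, 8.58 and 9.84 in WAT (log2 difference 2.98, adjusted p = 0.00126). Kng2, a kininogen, had a difference of 2.90 (adjusted p = 3.37e-04) and was at least 2.50-fold higher in BAT. Gldn, gliomedin, read 7.93, 8.88 and 6.71 in BAT and 4.40, 4.39 and 4.68 in WAT, where it was below the controls.

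**Figure D2:**
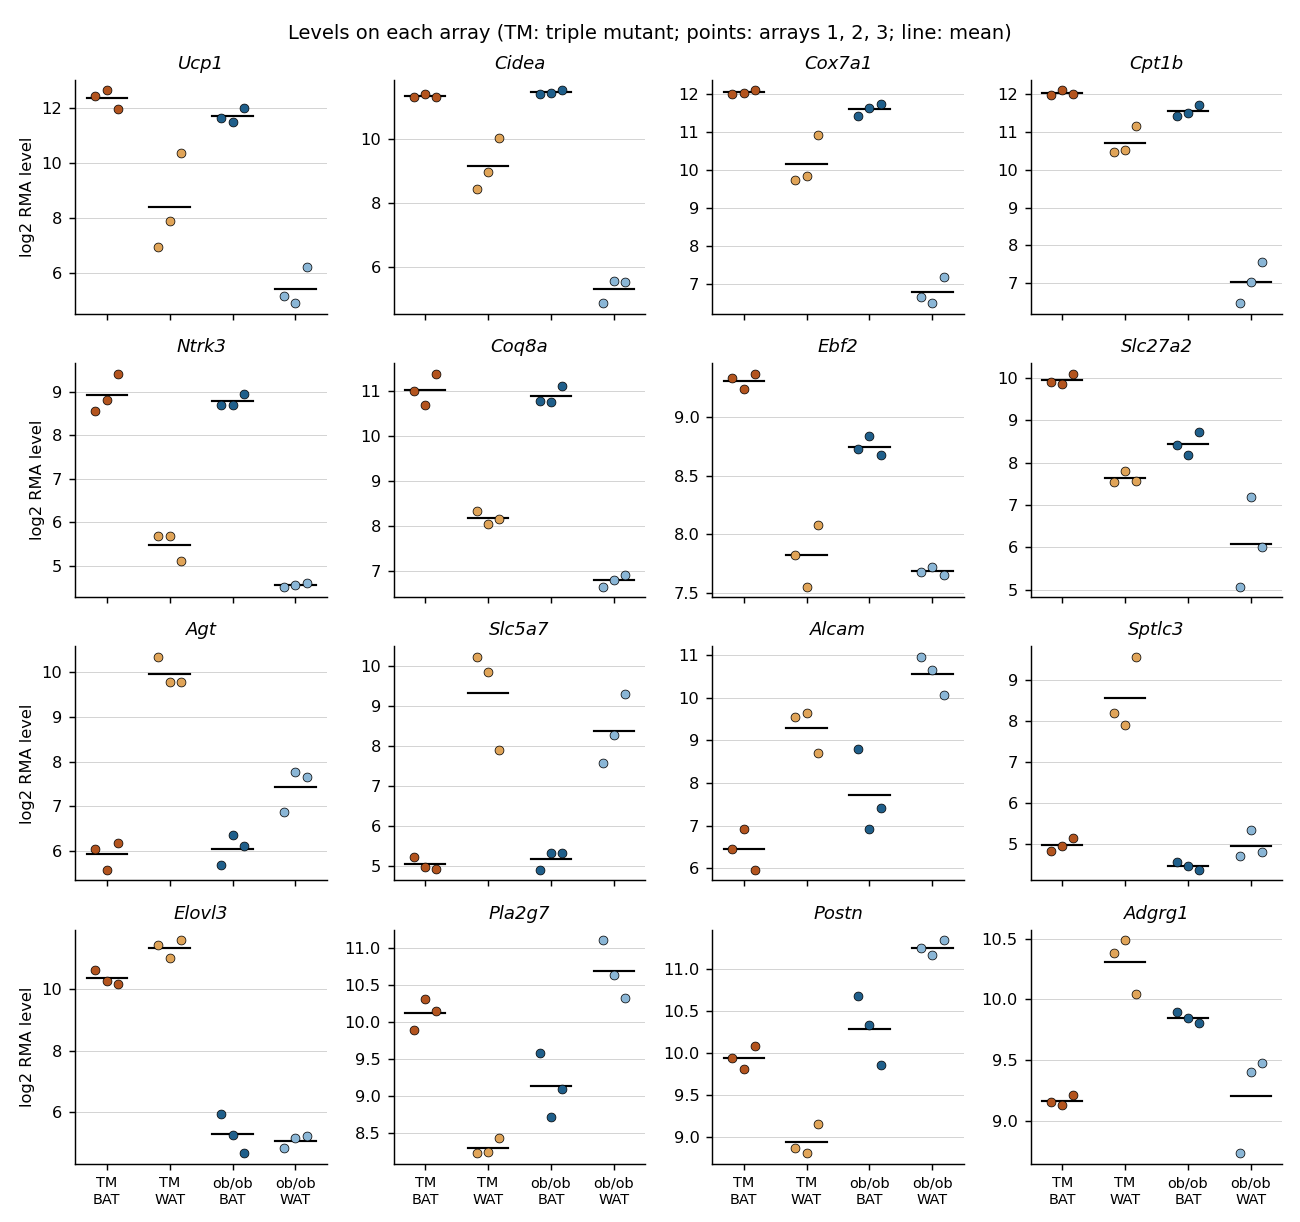
Log2 level of 16 genes on each of the 12 arrays, with triple mutant (TM) BAT left of WAT and then ob/ob BAT left of WAT, where points are arrays and lines are means. Ucp1, Cidea, Cox7a1 and Cpt1b separate the depots in both genotypes with higher WAT levels in triple mutants than in ob/ob, Sptlc3 is raised in triple mutant WAT alone, and Pla2g7, Postn and Adgrg1 turn their direction between the genotypes.

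Of 42 measured genes of a brown fat signature, 27 were higher in BAT of triple mutants and 1 was lower, with a median difference of 1.09 against 0.02 over all genes, of which 6.44% were called higher. In ob/ob 32 were higher and 1 lower, with a median of 1.88. All 27 genes higher in triple mutants were also higher in ob/ob, and without BAT array 1 or WAT array 3 the count was 23 and 27. The change between genotypes was called for 15 members toward a smaller excess and for 1 toward a larger one, Acot11.

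Genes of fatty acid oxidation and respiration in the signature had much smaller depot differences in triple mutants. Cox8b, an isoform of a cytochrome c oxidase subunit, read 12.54, 12.50 and 12.55 in BAT of triple mutants and 11.46, 11.44 and 11.86 in their WAT (difference 0.94, adjusted p = 0.0284). In ob/ob it read 12.12 to 12.30 in BAT and 6.58 to 7.92 in WAT, and the change was -3.99 (adjusted p = 3.10e-04). The Cox8b call in triple mutants was lost without any 1 of the 3 BAT arrays or of WAT arrays 1 and 2, with an adjusted p of up to 0.103 and differences from 0.87 to 1.07. Cpt1b, the muscle and brown fat carnitine palmitoyltransferase, differed by 1.32 in triple mutants and 4.54 in ob/ob (change -3.22, adjusted p = 8.40e-04). Cox7a1, another cytochrome c oxidase isoform, differed by 1.87 and 4.8 (change -2.93, adjusted p = 0.00149). Ppara, the fatty acid receptor that drives oxidation genes, differed by 1.67 and 4.02 (change -2.35, adjusted p = 0.00888). Ppargc1a, the coactivator of mitochondrial biogenesis, read 9.03, 8.77 and 8.69 in BAT and 7.96, 7.87 and 8.73 in WAT of triple mutants and was not called (0.64, adjusted p = 0.205). Its difference in ob/ob was 3.12, and the change was -2.47 (adjusted p = 0.00522). For each of these 5 genes all 3 WAT arrays of triple mutants read higher than all 3 WAT arrays of ob/ob. The share of all genes with such a separation was not counted, and the parts of WAT and BAT in these changes were not tested.

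For other brown fat genes the depot differences of the genotypes lay side by side. Letmd1, a mitochondrial inner membrane protein, read 11.40, 11.47 and 11.33 in BAT of triple mutants and 9.48, 9.49 and 9.95 in their WAT, and its difference was 1.76 in triple mutants and 1.76 in ob/ob. Slc27a2, a fatty acid transporter and very long chain acyl-CoA synthetase, differed by 2.32 and 2.35, S100b, a calcium-binding protein, by 2.35 and 2.45, and Otop1, a proton channel, by 1.56 and 1.72. Me3, the mitochondrial NADP-dependent malic enzyme, differed by 2.26 and 1.89, although both depots were below the controls and another Me3 probe set gave 0.32 in triple mutants. The change was not called for any of these 5 genes (adjusted p = 0.181 to 0.995), with a 95% interval from -0.38 to 0.37 for Letmd1 and a wider one, from -1.22 to 1.15, for Slc27a2. Acot11, a thioesterase, differed by 2.07 in triple mutants, where another of its probe sets gave 0.28, and by 0.81 in ob/ob. Its change of 1.26 (adjusted p = 0.0245) lost the call without triple mutant BAT 2, WAT 1 or WAT 2, or without ob/ob BAT 3, WAT 1 or WAT 2. Elovl3, an elongase typical of cold-activated brown fat, ran the other way: it read 10.61, 10.25 and 10.16 in BAT and 11.43, 11.01 and 11.58 in WAT (-1.0, adjusted p = 0.0282), while all ob/ob arrays lay between 4.67 and 5.94. That call was lost without BAT array 2 or 3 or without WAT array 1 or 3, with an adjusted p of up to 0.0954.

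The start regions of the brown fat and complex I genes were searched for the letters AAGGTCA on either strand, the half-site bound by estrogen-related receptors, which act on oxidative genes. RefSeq promoter windows (build GRCm38.p6, another build than that of the probe sets; 250 bases before to 50 bases after the start) were available for 13387 genes tested that have exactly 1 window. The letters stood in 3.82% of these windows, in 3 of 29 windows of the brown fat signature and in 3 of 31 windows of complex I. Among genes higher in BAT of triple mutants 34 of 860 windows held them (3.95%), and among genes lower in BAT 33 of 1037 (3.18%), both close to the share of all windows. Among genes higher in BAT of both genotypes 25 of 536 windows held them (4.66%), and among genes lower in BAT of both 10 of 493 (2.03%). Shown next are windows of 3 genes of these lists that were higher in BAT of both genotypes. These windows hold the letters and lie on the chromosome of the gene's probe set. Genes of 1 chromosome were left out of this choice, so the 3 need not be all such genes. The windows are Slc27a2 at chr2:126552774-126553073 (plus strand), Cpn2 at chr16:30267483-30267782 (minus strand) and Ndufb2 at chr6:39592315-39592614 (plus strand). Each is written 5′ to 3′ on the strand of the gene, with the half-site or its reverse complement in capitals.
Slc27a2: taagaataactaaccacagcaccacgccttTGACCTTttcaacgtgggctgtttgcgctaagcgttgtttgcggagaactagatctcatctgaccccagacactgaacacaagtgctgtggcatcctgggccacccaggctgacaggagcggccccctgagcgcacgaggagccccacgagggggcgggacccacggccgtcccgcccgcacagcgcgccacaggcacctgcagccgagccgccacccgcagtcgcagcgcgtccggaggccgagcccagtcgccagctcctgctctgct
Cpn2: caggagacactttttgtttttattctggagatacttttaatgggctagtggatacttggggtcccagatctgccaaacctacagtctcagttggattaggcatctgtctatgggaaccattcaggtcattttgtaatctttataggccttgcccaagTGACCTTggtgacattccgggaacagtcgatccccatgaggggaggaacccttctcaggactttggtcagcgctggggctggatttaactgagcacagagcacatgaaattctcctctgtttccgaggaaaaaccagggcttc
Ndufb2: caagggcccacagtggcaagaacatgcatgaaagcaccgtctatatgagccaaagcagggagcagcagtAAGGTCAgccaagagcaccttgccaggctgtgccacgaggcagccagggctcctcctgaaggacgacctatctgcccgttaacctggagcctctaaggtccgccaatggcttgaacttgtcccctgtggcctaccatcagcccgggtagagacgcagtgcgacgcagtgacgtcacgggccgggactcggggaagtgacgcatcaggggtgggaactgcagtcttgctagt
The first capital lies at position -220 in Slc27a2, at -93 in Cpn2 and at -181 in Ndufb2, counted from the start site at 1. Their BAT minus WAT differences in triple mutants were 2.32, 1.71 and 0.67, and Cpn2, a carboxypeptidase N subunit, was below the controls in both depots. Of 3 other motifs searched on both strands, the GABP site ACCGGAAG stood in 3.32% of all windows, in 5.58% of those of genes higher in BAT of triple mutants and in 2.22% of those of genes lower in BAT. The cAMP response element TGACGTCA stood in 2.45, 2.79 and 1.74% of the same sets, and CGCATGCG, the core of the site of NRF1, a factor of mitochondrial genes, in 2.65, 4.65 and 2.8%. A longer form of the NRF1 site was counted first, and this core was chosen after those shares were seen. Among genes higher and lower in BAT of both genotypes the shares were 4.66 and 2.23% for GABP, 2.05 and 2.03% for the cAMP response element and 5.22 and 2.84% for the NRF1 core. AAGGTCA and TGACGTCA share 4 letters at one end, and a window was counted once per motif. These shares describe letters in a short window, and binding was not measured.

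Of 37 measured subunits of complex I, the entry point of NADH electrons to the respiratory chain, 26 were higher in BAT of triple mutants, against 6.44% of all genes. All 37 had a positive difference, from 0.21 to 0.86 with a median of 0.53. In ob/ob all 37 were called with a median of 1.27, and for 25 the difference was smaller in triple mutants by the test of the change. Of all genes 18.2% were higher in BAT of ob/ob, and 5.47% had a lower value in triple mutants by that test. The mean level of the list was 10.50, 10.48 and 10.63 in BAT and 9.89, 9.89 and 10.22 in WAT of triple mutants, against 9.88, 10.08 and 10.15 in BAT and 8.57, 8.72 and 8.86 in WAT of ob/ob. The count of 26 was 16 without WAT array 1, 17 without WAT array 2 and 30 without WAT array 3. Ndufs1, the largest subunit of the electron-input arm, read 11.09, 11.13 and 11.31 in BAT and 10.16, 10.26 and 10.53 in WAT of triple mutants (0.86, adjusted p = 8.94e-04). Ndufb8, a membrane arm subunit, differed by 0.76 in triple mutants and 2.04 in ob/ob (change -1.28, adjusted p = 0.00105).

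The other complexes followed with smaller counts, where 6.44% of all genes were higher and 7.93% lower in BAT of triple mutants. A change was called for 13.9% of all genes. Of the 14 genes of complexes II and III, 10 were higher in BAT of triple mutants (median 0.53), and the change from ob/ob was called for 13. Sdhb, the iron-sulphur subunit of succinate dehydrogenase, differed by 0.77 in triple mutants and 1.83 in ob/ob, and Uqcrc1, a core subunit of complex III, by 0.66 and 2.08. Of 24 complex IV genes 11 were higher (median 0.37), and of 18 ATP synthase genes 6 were higher and 1 was lower (median 0.26). The lower one was Atp5g3, which encodes a c-ring subunit. It read 10.37, 10.31 and 10.19 in BAT and 11.25, 11.28 and 11.36 in WAT of triple mutants (-1.01, adjusted p = 2.87e-04), while it was higher in BAT of ob/ob (0.50, adjusted p = 0.00558). These counts fell without single arrays: to 3, 4 and 6 for complexes II and III without WAT 1, WAT 2 or BAT 3, to 4, 4, 6 and 7 for complex IV without WAT 1, WAT 2, BAT 2 or BAT 1, and to 2, 2 and 3 for ATP synthase without WAT 1, WAT 2 or BAT 3. Without WAT array 3 they were 13, 15 and 7.

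Enzymes that feed the chain showed the same order, beside 6.44% of all genes called higher and 7.93% lower in BAT of triple mutants. A lower value in triple mutants by the test of the change was called for 5.47% of all genes. Of 31 genes of the TCA cycle and pyruvate entry, 19 were higher in BAT of triple mutants (11 without WAT array 1), with a median of 0.54 against 1.36 in ob/ob, and 22 had a smaller difference by the test of the change. Sucla2, a succinyl-CoA ligase subunit, read 11.996, 12.15 and 12.10 in BAT and 10.66, 10.85 and 11.08 in WAT (1.22, adjusted p = 1.07e-04). Of 24 genes of mitochondrial fatty acid oxidation, 17 were higher (11 without WAT array 1) and 1 was lower, with a median of 0.71 against 1.41. Acadvl, the very long chain acyl-CoA dehydrogenase, differed by 1.16 and 2.70. The lower gene was Cpt1a, the carnitine palmitoyltransferase of liver and most other tissues, at -1.17 in triple mutants and -1.71 in ob/ob. Acsl5, an acyl-CoA synthetase, was higher in BAT of triple mutants (1.31, adjusted p = 7.37e-05) and lower in BAT of ob/ob (-0.66, adjusted p = 0.00136). Acss1, mitochondrial acetyl-CoA synthetase, had a larger excess in triple mutants, 2.19 against 0.84 (change 1.35, adjusted p = 0.00983).

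Mitochondrial ribosomal protein genes passed the test in part. Over all genes 6.44% were higher and 7.93% lower in BAT of triple mutants, and 13.9% had a called change. Of 76 measured, 32 were higher in BAT of triple mutants and 1 was lower, with a median of 0.35, against 59 higher and a median of 0.58 in ob/ob. The change was called for 7 of the 76. The 32 became 19, 21, 15 and 14 without BAT 1, BAT 2, WAT 1 or WAT 2 and 47 without WAT 3. Mrpl34 of the large subunit differed by 1.05 in triple mutants and 0.89 in ob/ob. Among 23 mitochondrial biogenesis factors, 10 were higher in BAT of triple mutants and 10 in BAT of ob/ob. They included Ppargc1b, a coactivator related to Ppargc1a, at 0.97 and 2.07. Esrra, an estrogen-related receptor, differed by 0.61 and 0.85. Of 27 genes of peroxisomal fatty acid oxidation, 6 were higher (3 to 8 with 1 array left out) and 7 lower (3 to 5) in BAT of triple mutants, and of 25 genes of branched-chain amino acid breakdown 9 were higher and 1 lower. The count of 9 was 5 without BAT 1 and 4 without BAT 2, BAT 3, WAT 1 or WAT 2, and it was 12 without WAT 3 and 14 with the replicate number as a block. The lower gene was Bcat2, the mitochondrial branched-chain aminotransferase, at -1.2 (adjusted p = 0.00139) in triple mutants and 0.34 in ob/ob.

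**Figure D3:**
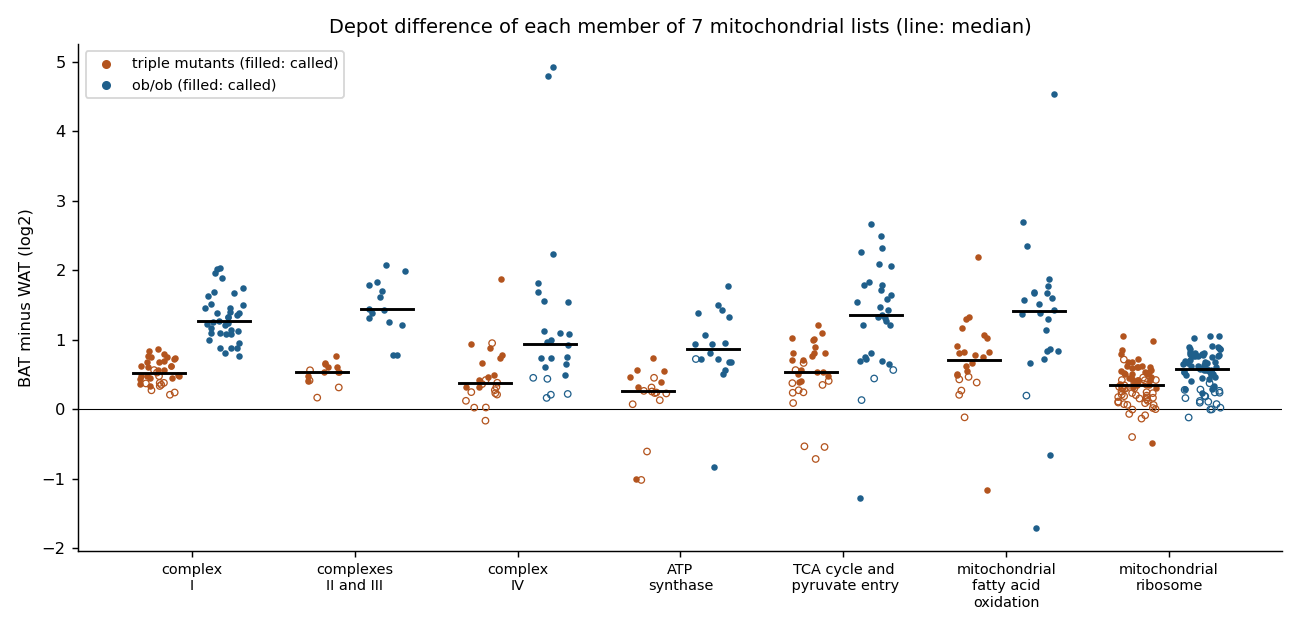
BAT minus WAT difference (log2) of each member of 7 mitochondrial gene lists in triple mutants (left of each pair) and ob/ob (right), with filled points for called genes and lines at the medians. In complex I every point lies above 0 in both genotypes, with medians of 0.53 and 1.27, and in the mitochondrial ribosome the medians are 0.35 and 0.58.

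Transcription factors of brown depot identity were higher in BAT where they were called. Of 24 regulators linked to brown fat or its origin, 11 were higher in BAT of triple mutants and none was lower. All 11 were also higher in BAT of ob/ob. Among all genes 6.44% were higher and 7.93% lower in BAT of triple mutants, and 18.2% were higher in BAT of ob/ob. Ebf2, which marks brown precursor cells and opens brown fat genes, read 9.33, 9.24 and 9.37 in BAT and 7.83, 7.55 and 8.08 in WAT of triple mutants, a 2.82-fold difference (log2 1.5, adjusted p = 2.25e-05). Its difference in ob/ob was 1.07, and the change of 0.43 was not called (adjusted p = 0.103). Prdm16, a coregulator of the brown fate, and Zic1, Lhx8 and Tbx5, factors tied to the origin of the interscapular depot or to anterior tissue, were below the controls in both depots of triple mutants. Their log2 differences were 1.19, 1.48, 1.03 and 2.0 in triple mutants and 1.41, 1.26, 1.05 and 2.44 in ob/ob. In each of these genes all 3 BAT arrays lay above all 3 WAT arrays of triple mutants, as they did in 32.7% of all genes in one direction or the other. Another Prdm16 probe set differed by 0.21 in triple mutants. The change between genotypes was called for 3 of the 24 regulators, near the share of 13.9% over all genes. One of them was Esrrg, an estrogen-related receptor of oxidative tissues, with differences of 0.79 and 1.96 (change -1.17, adjusted p = 0.00692).

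Of 24 regulators linked to white depots, 9 were lower and 3 were higher in BAT of triple mutants, where 7.93% of all genes were lower and 6.44% higher. Hoxc8, a positional factor of the trunk, read 8.81, 9.0 and 8.67 in BAT and 10.82, 10.69 and 10.63 in WAT, and its difference was -1.89 in triple mutants and -1.91 in ob/ob. Gata6 read 6.97, 6.76 and 6.69 in BAT, below the controls, and 8.40, 8.34 and 8.97 in WAT. It was at least 1.51-fold lower in BAT, and its log2 difference was -1.76, against -0.71 in ob/ob (change -1.05, adjusted p = 0.0101). Tcf21 and Wt1, factors of visceral fat and mesothelium, were below the controls in both depots, with differences of -1.06 and -1.31 in triple mutants and -0.58 and -0.90 in ob/ob. Tbx15, a factor of the trunk that is also high in glycolytic muscle, was on the other side: it read 7.69, 6.52 and 5.95 in BAT and 3.87, 3.87 and 4.01 in WAT of triple mutants (2.80, adjusted p = 0.00796), all below the controls. Its order over the BAT arrays was that of the muscle markers, and the part of muscle in its difference was not tested.

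Of 39 Hox genes, 8 were lower and 5 higher in BAT of triple mutants, against 2 lower and 16 higher in ob/ob. Over all genes 7.93% were lower and 6.44% higher in triple mutants, against 19.1% lower and 18.2% higher in ob/ob. For 8 Hox genes the BAT minus WAT value was lower in triple mutants by the test of the change. Hoxc9 was below the controls in both depots, with a difference of -1.12 in triple mutants (adjusted p = 3.11e-04) and -0.42 in ob/ob. Hoxa5 was higher in BAT of both genotypes, by 0.84 and 1.04. Hoxb5 and Hoxd9 were called in opposite directions, at -0.56 and -0.36 in triple mutants and 0.54 and 0.36 in ob/ob, with all 4 groups below the controls. Hoxc10 was not called in either genotype (adjusted p = 0.434 and 0.409). The 5 higher calls became 2 without WAT 2 and 3 without any other of the 6 arrays, and the 8 lower calls became 5 without BAT 2 or WAT 1.

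Genes lower in BAT, and so higher in white fat, of triple mutants included complement, liver-type and transporter genes. Agt, angiotensinogen (chromosome 8, 127080487 to 127100793, minus strand, NCBIM37), read 6.06, 5.59 and 6.19 in BAT, below the controls, and 10.33, 9.77 and 9.76 in WAT. It was at least 3.94-fold lower in BAT (log2 difference -4.01, adjusted p = 8.21e-06). In ob/ob the WAT arrays read 6.88, 7.76 and 7.66, the difference was -1.38, and the change was -2.63 (adjusted p = 0.00199). Slc5a7, the choline transporter (chromosome 17, 54412915 to 54438242, minus strand), read 5.22, 4.98 and 4.93 in BAT and 10.22, 9.85 and 7.89 in WAT, with differences of -4.28 in triple mutants and -3.19 in ob/ob. C7 and C6, terminal complement proteins, differed by -4.15 and -3.41 and were at least 4.45-fold and 1.34-fold lower in BAT, where both were below the controls. Alb, albumin, read 6.10, 6.39 and 8.12 in BAT and 10.41, 10.40 and 11.09 in WAT (-3.77, adjusted p = 0.00769).

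Some of these white fat genes had smaller fitted depot differences in ob/ob, called there or not. Sptlc3, a serine palmitoyltransferase subunit that starts sphingolipid synthesis, read 4.83, 4.95 and 5.14 in BAT and 8.19, 7.91 and 9.56 in WAT of triple mutants, against 4.56, 4.46 and 4.37 in BAT and 4.71, 5.34 and 4.796 in WAT of ob/ob. The 3 WAT arrays of triple mutants lay above all other arrays. The depot difference was -3.58 in triple mutants and -0.48 in ob/ob (change -3.10, adjusted p = 0.00301). Dnajc6, auxilin, differed by -3.60 and -0.71 (change -2.89, adjusted p = 0.00498). Cldn10, a tight junction protein, differed by -3.18 and -1.10, and its change of -2.08 was not called (adjusted p = 0.0832). Aadac, an esterase of the liver, differed by -3.71 and -1.49, with a change of -2.22 (adjusted p = 0.00927). Slc16a12, a creatine transporter, and Sult1e1, estrogen sulfotransferase, differed by -3.19 and -3.17, and Sult1e1 was below the controls in both depots.

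Other white fat genes had large differences in both genotypes. Alcam, a cell adhesion molecule, read 6.44, 6.93 and 5.97 in BAT and 9.54, 9.64 and 8.70 in WAT of triple mutants and differed by -2.85 in each genotype. Lipf, gastric lipase, differed by -2.81 and -3.06, Sycp3, a protein of meiotic chromosomes, by -2.71 and -3.20, and Pcbd1, a pterin dehydratase that is also a cofactor of HNF1 factors, by -2.61 and -2.87. Gpm6a, a membrane glycoprotein of neurons and mesothelium, differed by -2.95 and -2.43. The change was not called for any of these 5 genes (adjusted p = 0.302 to 1), with a 95% interval from -1.37 to 1.37 for Alcam. Olr1, a receptor for oxidised lipoprotein, read 8.30, 7.04 and 4.94 in WAT of triple mutants, differed by -2.47 (adjusted p = 0.0166) and lost the call without BAT 1, BAT 3 or WAT 2 (adjusted p up to 0.0652) and with the 6 triple mutant arrays fitted alone.

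Markers of the mesothelium, the cell layer on the surface of visceral organs and fat, were lower in BAT of triple mutants in 13 of 14 genes (11 without any 1 array other than WAT 3 and 14 without WAT 3), with a median of -1.31. In ob/ob 7 of the 14 were lower, with a median of -0.79, and the change was called for 1. The shares of all genes called lower in BAT were 7.93% in triple mutants and 19.1% in ob/ob, and 13.9% had a called change. Upk1b and Upk3b, uroplakins, read 4.57 to 4.73 and 5.45 to 5.64 in BAT and 6.92 to 7.73 and 7.74 to 8.01 in WAT of triple mutants, with differences of -2.69 and -2.30. Msln, mesothelin, was below the controls in both depots, with a difference of -1.16. On WAT array 3 the mean level of the list was 6.43, against 7.05 and 7.03 on WAT arrays 1 and 2 and 5.28 to 5.36 on the BAT arrays. No marker of the list was above the controls on a triple mutant BAT array, and 5, 6 and 1 were on WAT arrays 1, 2 and 3. In these whole-tissue samples fewer cells of a type and less RNA per cell cannot be told apart. The part of mesothelial cells in the white fat genes above was not tested.

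General fat cell genes differed little between the depots of triple mutants, where 6.44% of all genes were higher and 7.93% lower in BAT. Of 20 adipocyte markers 1 was lower in BAT and none higher (limma with Benjamini-Hochberg adjustment), with a median of 0.01, while in ob/ob 13 were higher and 3 lower with a median of 0.78. For 9 of the 20 the BAT minus WAT value was smaller in triple mutants by the test of the change. Their mean level was 11.33, 11.33 and 11.42 in BAT and 11.43, 11.35 and 11.41 in WAT of triple mutants, against 11.002, 11.003 and 11.11 in BAT and 9.74, 10.30 and 10.66 in WAT of ob/ob. Pnpla2, adipose triglyceride lipase, read 11.90, 11.84 and 12.06 in BAT and 12.01, 11.83 and 11.96 in WAT of triple mutants. Its BAT excess of 0.95 in ob/ob was larger than the difference in triple mutants by a called change of -0.95 (adjusted p = 0.00943). Adipoq, adiponectin, differed by -0.29 (95% interval from -0.78 to 0.20, adjusted p = 0.467), and Pparg, the master regulator of fat cells, by 0.27 (95% interval from -0.02 to 0.57, adjusted p = 0.228). Adrb3, the adrenergic receptor of fat, had an interval from -0.92 to 1.41.

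Among 30 genes of a white fat signature, 15 were lower and 3 higher in BAT of triple mutants, against 7.93% and 6.44% of all genes. The 3 became 1 without BAT 1, BAT 2, WAT 1 or WAT 2 and 2 without BAT 3 or WAT 3. Slc7a10, an amino acid transporter of white adipocytes, read 8.78, 9.33 and 9.22 in BAT and 10.75, 10.90 and 11.04 in WAT (-1.79, adjusted p = 0.00137), and Psat1 of serine synthesis differed by -1.65. Mest, an imprinted gene tied to fat expansion, differed by -1.77 in triple mutants and -2.06 in ob/ob. Nnat, neuronatin, was higher in BAT of both genotypes, by 2.17 and 1.80. The hormone genes gave weaker calls: Lep, leptin, whose gene is mutated in all these mice, differed by -0.66 (adjusted p = 0.0192) and Retn, resistin, by -1.29 (adjusted p = 0.0311). The Lep call was lost without BAT 1, BAT 3, WAT 1 or WAT 2 (adjusted p up to 0.0776), and the Retn call without any 1 of the 6 arrays (adjusted p up to 0.0965).

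Lipid synthesis and storage genes were divided, where 6.44% of all genes were higher and 7.93% lower in BAT of triple mutants. Of 31 genes of fatty acid and triglyceride synthesis, 9 were lower in BAT of triple mutants (5 without WAT 1 or WAT 2) and 2 were higher, with a median of -0.23, while in ob/ob 6 were lower and 15 higher with a median of 0.44. Elovl6, an elongase of palmitate, read 10.35, 10.52 and 10.59 in BAT and 7.82, 7.97 and 8.67 in WAT (2.33, adjusted p = 0.00214), a 5.04-fold difference. Elovl7, an elongase of longer acyl chains, ran the other way at -3.11 (adjusted p = 8.21e-06) with both depots below the controls. Scd1, a desaturase, read 11.74, 11.56 and 9.82 in BAT and 12.74, 12.81 and 12.05 in WAT (-1.49, adjusted p = 0.0286), and its call was lost without WAT 1 or WAT 2 (adjusted p up to 0.105) and with the 6 arrays fitted alone. Of 24 genes of lipolysis and the droplet surface, 3 were higher and 1 was lower. The higher ones were Cidea, Plin5 and Plin3, and the lower one was Abhd5, an activator of adipose triglyceride lipase, at -0.82. Plin5, which couples droplets to mitochondria, differed by 1.13 in triple mutants and 2.21 in ob/ob (change -1.08, adjusted p = 0.0196). Among 26 receptors and signalling genes of lipolysis, 4 were higher and 3 lower, where 6.44% of all genes were higher and 7.93% lower, with Adra1a, an alpha-adrenergic receptor, at 1.25 and Adcy5, an adenylyl cyclase, at -1.80. Of 25 genes of glucose uptake and glycolysis 6 were higher (2 to 6 with 1 array left out) and 1 lower. Hk1, a hexokinase, read 8.88, 8.95 and 8.21 in BAT and 7.05, 6.99 and 7.33 in WAT of triple mutants, at least 1.85-fold higher in BAT (1.56, adjusted p = 3.37e-04), against a difference of 0.29 in ob/ob (change 1.27, adjusted p = 0.0108).

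**Figure D4:**
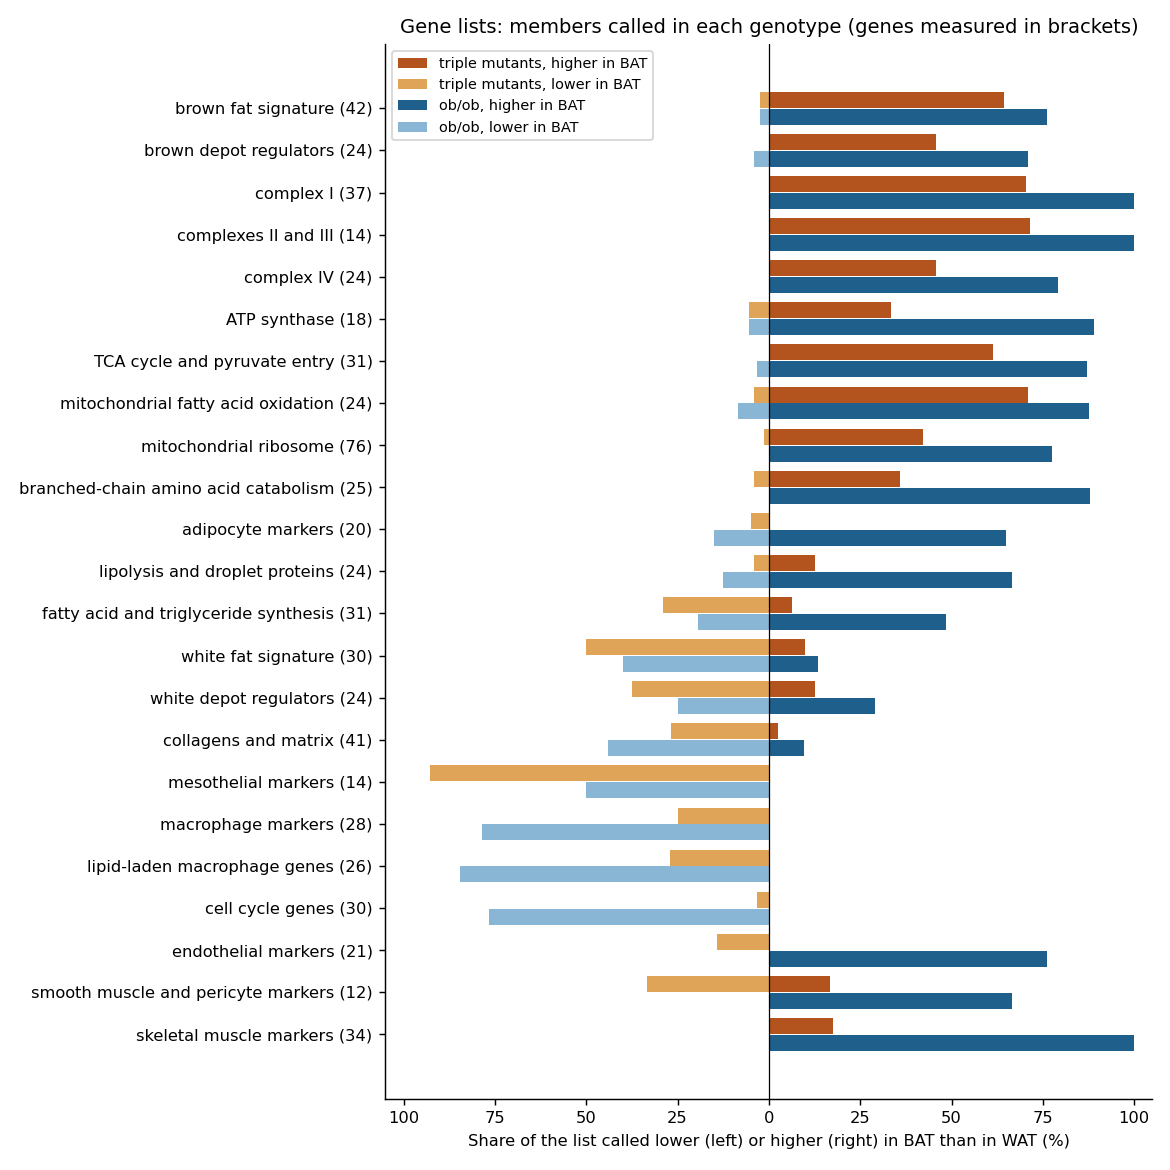
Share of each gene list called higher in BAT (right) or lower in BAT (left), in per cent of its measured genes, for triple mutants (upper bar) and ob/ob (lower bar), with the number of genes measured in brackets. Brown fat and mitochondrial lists lean to the right in both genotypes, mesothelial markers lean to the left in both, and adipocyte, endothelial, macrophage and cell cycle lists have long bars in ob/ob and short ones in triple mutants.

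Macrophage markers had small depot differences in triple mutants. Over all genes 7.93% were lower in BAT of triple mutants, 19.1% were lower in BAT of ob/ob and 13.9% had a called change. Of 28 markers 7 were lower in BAT and none higher (limma with Benjamini-Hochberg adjustment), with a median of -0.48, against 22 lower and a median of -1.70 in ob/ob. The change was called for 16, each toward 0. The count of 7 was 3 without WAT 1, 4 without BAT 2, BAT 3 or WAT 2 and 5 without BAT 1 or WAT 3. Their mean level was 6.64 to 6.76 in BAT and 7.17 to 7.29 in WAT of triple mutants, against 7.57 to 8.45 in BAT and 9.45 to 9.67 in WAT of ob/ob. Csf1r, the receptor for colony-stimulating factor 1, read 7.32, 7.47 and 7.85 in BAT and 8.68, 8.66 and 8.66 in WAT of triple mutants, at least 1.62-fold lower in BAT, and differed by -1.12 in triple mutants and -1.57 in ob/ob. Mrc1, a mannose receptor, differed by -1.04 and -1.38. Of 26 genes of lipid-laden macrophages 7 were lower in BAT of triple mutants and 22 in BAT of ob/ob, and the change was called for 12. The count of 7 was 4 without WAT 1 or WAT 2, 5 without any 1 BAT array and 7 without WAT 3. Gpnmb, a glycoprotein of such cells, read 7.28, 6.86 and 6.48 in BAT and 6.14, 6.31 and 6.34 in WAT of triple mutants, all below the controls, against 10.48, 8.99 and 8.89 in BAT and 12.47, 12.23 and 11.77 in WAT of ob/ob (change 3.31, adjusted p = 0.00314). Of 30 cell cycle genes 1 was lower in BAT of triple mutants, Ccne1 at -1.06, against 23 lower in ob/ob.

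Vascular markers were divided, beside 6.44% of all genes called higher and 7.93% lower in BAT of triple mutants and 13.9% with a called change. Of 21 endothelial markers 3 were lower in BAT of triple mutants and none higher, with a median of -0.04, while 16 were higher in ob/ob with a median of 0.60. The change was called for 11, each toward a lower BAT minus WAT value in triple mutants. Vwf, von Willebrand factor, read 6.85, 6.85 and 6.95 in BAT and 8.02, 7.95 and 7.53 in WAT (-0.95, adjusted p = 6.76e-04). Of 12 smooth muscle and pericyte markers, 4 were lower in BAT of triple mutants, and they are contractile genes. Acta2, smooth muscle actin, read 8.87, 8.51 and 8.40 in BAT and 10.22, 10.29 and 9.74 in WAT, a difference of -1.49 against -0.21 in ob/ob (change -1.28, adjusted p = 0.0145). Tagln, transgelin, differed by -1.44 and 0.03, Myh11, smooth muscle myosin, by -1.18 and 0.44, and Cnn1, calponin, by -1.26 and 0.46 with both depots below the controls. All 4 changes were called. Another 2 markers of the list were called higher in BAT, a count that was 0 without BAT 1, BAT 2, BAT 3 or WAT 1 and 1 without WAT 2 or WAT 3 or with the replicate number as a block.

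Among the other lists the counts differed, where 6.44% of all genes were higher and 7.93% lower in BAT. In triple mutants 1 of 21 T and NK cell markers and 2 of 12 B cell markers were lower in BAT, and 1 of 20 mast cell and granulocyte markers was higher. All markers of these lists were below the controls on all 6 arrays. The mast cell and granulocyte count was 0 without BAT 3 or without any 1 WAT array. Of 21 fibroblast and preadipocyte markers 4 were lower (7 with the replicate number as a block), of 41 collagen and matrix genes 11 were lower and 1 higher, and of 9 erythroid markers none was called. Col15a1, a basement membrane collagen, read 7.74, 7.43 and 6.96 in BAT and 9.27, 9.30 and 9.09 in WAT (-1.85, adjusted p = 1.35e-04). Of 16 Schwann cell and nerve markers 5 were higher and 1 was lower, and S100b, named above, is also expressed by brown adipocytes. Of 12 epithelial markers 5 were lower, among them Prlr, the prolactin receptor, at -2.10 with both depots below the controls, and of 10 markers of lymph node and thymus stroma 2 were lower. Of 31 cytokine and chemokine genes 4 were lower. Single calls at most in each direction were made among 25 interferon response and 19 clock genes, and up to 3 higher and 4 lower among 20 immediate early, 19 hypoxia, 8 creatine cycle, 11 beige cell and 18 imprinted genes. Of 37 adipokine genes 1 was higher and 7 were lower. Without BAT 1 the clock genes held 4 higher and 2 lower calls, with a median of 0.61 against 0.13 with all arrays, and without WAT 3 the hypoxia genes held 3 lower calls, against 1. Leaving out 1 array at a time gave 4 to 11 lower adipokine genes, 0 to 3 lower B cell markers, 3 to 6 lower epithelial markers, 1 to 4 lower cytokine and chemokine genes and 3 to 6 lower fibroblast markers.

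Skeletal muscle markers spread widely between the BAT arrays of triple mutants, and few passed the test. All 34 had a positive difference in triple mutants, from 0.99 to 4.35 with a median of 2.32, and 6 were called. In ob/ob all 34 were called with a median of 3.87. The shares of all genes called higher in BAT were 6.44% in triple mutants and 18.2% in ob/ob. The 6 called genes are among the 12 with the largest BAT excess: Atp2a1, the calcium pump of fast muscle, Ttn and Neb, giant sarcomere proteins, Myh4, a fast myosin, Pvalb, parvalbumin, and Tnnt3, a troponin. Atp2a1 read 12.04, 10.31 and 7.60 in BAT and 5.51, 5.50 and 5.89 in WAT, at least 4.55-fold higher in BAT (4.35, adjusted p = 0.00974). Myh4 read 10.90, 8.48 and 6.16 in BAT and 4.75, 4.61 and 4.64 in WAT. The other 5 genes lost the call without BAT 1, without BAT 2 or without any 1 WAT array of triple mutants, with an adjusted p of up to 0.162 for Neb and 0.0899 for Myh4, and they lost it with robust variance moderation. Ttn, Neb and Tnnt3 also lost it without ob/ob WAT 2, and Neb and Tnnt3 without ob/ob BAT 3, WAT 1 or WAT 3. Without BAT array 3 the list held 15 calls, and without any other array it held 1. On BAT array 3 just 2 of the 34 markers lay above the controls, against 32 and 14 on BAT arrays 1 and 2 and 1 on each WAT array. On BAT array 3 Ntrk3 and Coq8a had their highest BAT levels, 9.41 and 11.38, and Ucp1 had its lowest, 11.96. Fabp3 and Gldn also had their lowest BAT levels there. The part of muscle in the BAT excess of other genes was not tested.

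**Figure D5:**
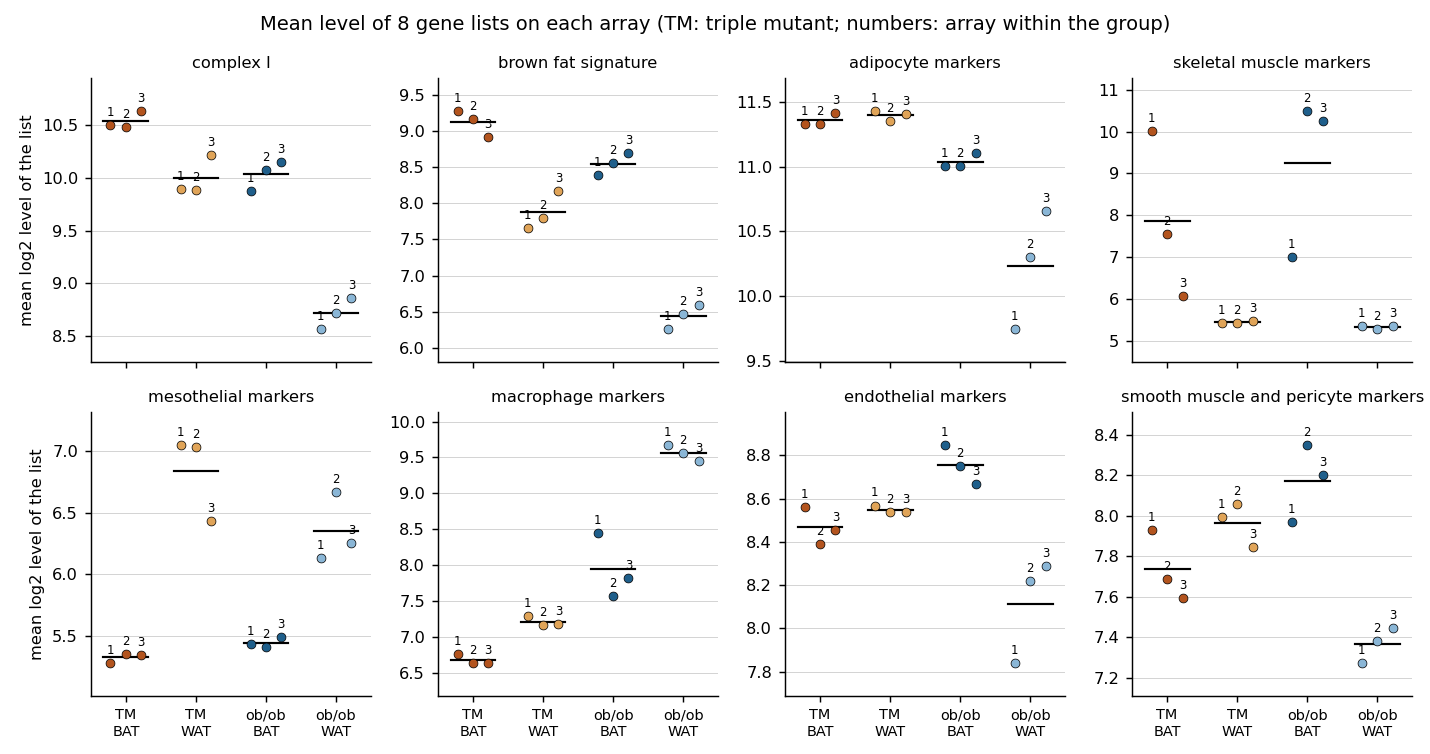
Mean log2 level of 8 gene lists on each array, numbered within its group, with triple mutant (TM) BAT left of WAT and then ob/ob BAT left of WAT; lines are group means. Skeletal muscle markers spread from 6.065 to 10.004 over the BAT arrays of triple mutants, WAT array 3 of triple mutants is the highest of its group for complex I and the lowest for mesothelial markers, and macrophage markers are highest in ob/ob WAT.

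Of the 107 genes called in opposite directions, 58 were higher and 49 lower in BAT of triple mutants, and the change was called for all 107. The count was 56 to 70 without any 1 of the triple mutant arrays other than WAT 3, 157 without WAT 3, 71 without ob/ob BAT 3, 68 without ob/ob WAT 2 and 170 with the replicate number as a block. Pla2g7, the lipoprotein-associated phospholipase, read 9.89, 10.31 and 10.15 in BAT and 8.23, 8.25 and 8.42 in WAT of triple mutants, a 3.53-fold difference (1.82, adjusted p = 4.05e-04). In ob/ob it read 9.58, 8.71 and 9.09 in BAT and 11.10, 10.63 and 10.33 in WAT (-1.56). Postn, periostin, a matrix protein, differed by 1.0 in triple mutants and -0.96 in ob/ob, Shtn1, shootin, by 1.54 and -1.68, and Flvcr1, a heme and choline transporter, by 0.97 and -0.86. In the other direction, Adgrg1, an adhesion receptor, read 9.15, 9.13 and 9.21 in BAT and 10.38, 10.49 and 10.05 in WAT of triple mutants and differed by -1.14, against 0.64 in ob/ob. Car2, carbonic anhydrase 2, differed by -1.11 and 1.2 and Mgst3, a microsomal glutathione transferase, by -0.99 and 1.19. The triple mutant calls of these 7 genes held in each of the 21 alternatives run for them.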

How the data were processed

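RNA of brown and white fat was measured on 12 arrays, 3 for each genotype and depot. The deposited log2 levels had been made with RMA, per the submitters' processing notes, which background-corrects, quantile-normalizes and summarises probes; versions are not given in the sources used here. RMA compresses small signals, so differences of dim genes are understated. The deposited annotation, with positions on NCBIM37, gave 28350 main probe sets, of which 25004 named 1 gene, 2 named several and 3344 named none. Symbols were updated with a RefSeq table (GRCm38.p6): 18651 genes carried a current symbol, 2221 an earlier one, and 746 kept the name given. The brightest probe set stood for each of 21618 genes. Dimmer probe sets gave smaller differences in triple mutants for some named genes, among them Fabp3 (0.93), Ebf2 (0.485) and Flvcr1 (0.21). Another 12 array columns of the annotation table carry names that match no sample label and were not used. The authors' deposited tables of genotype comparisons and term enrichment were not used here.

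Limma 3.58.1 in R 4.3.3 was fitted to all 12 arrays with 4 group means (8 residual and 3.47 prior degrees of freedom). Contrasts were BAT minus WAT in each genotype, which share no array, and their difference. P-values were adjusted over all genes by Benjamini-Hochberg. On simulated data 100 genes were changed at each size among 21618. The contrast in triple mutants recovered 88% at a log2 change of 1 and 96% at 2, and the difference of contrasts 72% and 93%. They also called 7 and 10 unchanged genes. The simulated noise was independent between arrays, with the same spread of a gene on each. These arrays differ from that, so the rates do not give the power of this design. Deviations from group means correlated between BAT and WAT arrays of the same number (r = 0.151, 0.212 and 0.186 in triple mutants, 0.217, 0.221 and 0.156 in ob/ob). Between arrays of different numbers r ran from -0.241 to 0.071. A fit with the number as a block was therefore run as an alternative, and the calls reported come from the fit without it unless the block is named. Whether arrays of the same number share a mouse or a batch was not tested. The number of arrays limits the precision.

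The comparison and the 45 gene lists were chosen with earlier results of these data known. Named genes were 25 fixed genes, the 12 largest called differences per direction without overlap and with a mean of at least 6 in the higher group, the 10 largest per direction that remain and that changed, up to 8 called opposite per direction, and, per list, its 4 genes of lowest p. Predicted genes, clones and large receptor families were left out, and 3 named genes are not reported here. Other list members, and the motifs, were chosen after their values were seen. Alternatives were the 6 arrays alone, a filter on dim genes (mean of at least 5), quantile normalization within genotype, median centring, the mean of probe sets, trended or robust variance, array weights, a size threshold of 1, the block and leaving out each array.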

Additional observations from a re-analysis of the deposited data

Results flagged for a closer look

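The depot difference of 38 named genes differed between triple mutants and ob/ob by the test of the difference itself (limma, Benjamini-Hochberg adjusted p from 6.21e-06 to 0.0306 in 3 arrays a group). Each change below is the BAT minus WAT value in triple mutants minus that in ob/ob, on the log2 scale.

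Among genes with a higher value in triple mutants, the change was 5.0 for Gpr50, 4.83 for Atp6v0d2, 4.30 for Cpa3, 3.86 for Serpinb9b, 3.64 for Tm4sf19, 3.55 for Il7r, 3.39 for Rgs1 and 3.39 for Cd200r4. In triple mutants these 8 genes were below the controls in both depots, and in ob/ob all 8 were lower in BAT, by log2 differences from -3.20 to -5.07. Atp6v0d2 is a proton pump subunit, Cpa3 a mast cell protease and Il7r a cytokine receptor. The Rgs1 change lost its call without ob/ob BAT 3 or WAT 1 (adjusted p up to 0.0525).

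Brown fat and oxidation genes had smaller BAT excesses in triple mutants. The change was -3.99 for Cox8b, -3.95 for Cidea, -3.22 for Cpt1b, -2.93 for Cox7a1, -2.47 for Ppargc1a and -2.35 for Ppara. It was -3.0 for Cfd, the complement factor adipsin, whose BAT excess of 2.76 in ob/ob stood against -0.24 in triple mutants, and -0.95 for Pnpla2.

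Genes lower in BAT of triple mutants changed by -3.10 for Sptlc3, -2.94 for Tlcd4, -2.93 for Elovl7, -2.89 for Dnajc6, -2.63 for Agt and -0.70 for Hoxc9. Elovl7 and Hoxc9 were below the controls in both depots of triple mutants. The Hoxc9 change lost its call with quantile normalization within genotype and without BAT 1, BAT 2 or BAT 3 of triple mutants or BAT 2, BAT 3, WAT 1 or WAT 2 of ob/ob (adjusted p up to 0.0765).

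Of genes called in opposite directions, those higher in BAT of triple mutants changed by 3.84 for Dhrs9, 3.38 for Pla2g7, 3.21 for Shtn1, 3.03 for Akr1b8, 2.94 for Sfrp5, 2.32 for Tmem106a, 1.96 for Postn and 1.82 for Flvcr1. Those lower in BAT of triple mutants changed by -2.31 for Car2, -2.18 for Mgst3, -1.97 for Tst, -1.78 for Adgrg1, -1.73 for Acat3, -1.72 for Prnd, -1.66 for Adh1 and -1.48 for Tmeff1. For Prnd the probe set used differed by -0.74 in triple mutants, and another Prnd probe set differed by 0.08, in the other direction. The triple mutant calls of Dhrs9, Akr1b8, Tmem106a, Sfrp5, Tst, Adh1, Prnd, Acat3 and Tmeff1 were lost without at least 1 single array, with adjusted p-values up to 0.178.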

How the results depend on the processing

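Array weights raised the counts to 5521 genes between the depots of triple mutants (2601 higher and 2920 lower in BAT), 5471 with a changed depot difference, 3044 that remain, 317 called in opposite directions and 13 lists with over 50% of members called in 1 direction, against 6 lists in the fit reported. A size threshold of 1 left 724 genes (202 higher and 522 lower) in triple mutants, 1837 in ob/ob, 991 changed, 298 that remain, 4 opposite and 1 list. The replicate block gave 170 opposite genes and 10 lists, and it changed no call of a single gene printed, but list counts moved with it. Higher calls went from 26 to 33 in complex I, 19 to 23 in the TCA list and 11 to 14 in complex IV. They went from 11 to 10 in the brown depot regulators. Lower calls went from 7 to 10 in macrophage markers and in adipokines and from 11 to 14 in collagens and matrix. Counts of up to 3 calls in a list moved by at most 2. The filter on dim genes also gave 10 lists. With 1 array left out, the triple mutant count ran from 1835 to 3585 (805 to 1502 higher, 1009 to 2083 lower), the changed genes from 1779 to 3398, the remaining genes from 1100 to 1947, the opposite genes from 56 to 157 and the lists from 1 to 9. Median centring turned the split in triple mutants to 55.9% higher, against 44.8% in the fit reported, and that of changed genes to 77.7% higher, against 60.6%; without triple mutant WAT 3 the changed genes were 50.6% higher. The cause of these moves was not tested, apart from the smaller number of arrays or genes that some settings hold by construction. Of 117 named genes called in triple mutants, 97 kept the call in all 21 alternatives and 20 lost it in at least 1, and none turned its direction. Of 38 named changes called, 36 held in all 20 alternatives run for them. Many of these genes were picked by size or lowest p in the fit reported. Their stability was therefore partly set by that choice and does not describe all calls. Genes below the controls in both depots have fitted differences with no fold, and their size is limited by signal over background.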
